A study of Mus musculus with 8 samples.

Results

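The genes of glycolysis and of the response to low oxygen were followed across autophagy deficient and autophagy competent mouse melanocytes, with and without UVA-1. The set holds 38 genes, listed by symbol and matched to Affymetrix probe sets that the platform annotation ties to a single gene symbol. For genes with several such probe sets the brightest, by its mean over the 8 arrays, stood for the gene. In all, 33 genes were measured out of 22180 genes on the array. Of the other 5, Aldoa, Bnip3l and Ankrd37 were only on probe sets that carry several symbols, and Gpi1 and Eno1 were matched to no probe set, so these 5 genes were not analysed here. All 33 entered every fit, since no filter on dim genes was used, and 4 of them (Slc2a3, Pdk1, Car9 and Car12) had a mean level below the median of all genes.

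The cells were melanocytes, the pigment cells of skin, isolated from pups aged 1 to 5 days and kept in culture for 22 days. The labels give female for all samples. Autophagy deficient cells (KO) had the genotype Atg7 f/f Tyr::Cre, in which a Cre recombinase driven by the tyrosinase promoter, active in pigment cells, deletes the floxed gene for the autophagy enzyme ATG7. Autophagy competent cells (WT) were Atg7 f/f without Cre. Both carried the floxed alleles, and RNA came 6 h after 20 J/cm² of UVA-1 (the longest wavelengths of ultraviolet light) or after a sham treatment. The 4 groups KO UVA, KO sham, WT UVA and WT sham had 2 arrays each, numbered 1 and 2 in the labels, which call them biological duplicates.

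Glycolysis splits glucose into pyruvate: glucose enters through GLUT transporters, is trapped by hexokinase, committed by phosphofructokinase and taken through aldolase, enolase and pyruvate kinase, after which lactate dehydrogenase and monocarboxylate transporters dispose of the product. Hypoxia-inducible factors (HIF) are pairs of a labile alpha subunit, encoded by Hif1a or Epas1, and a stable partner; in normal oxygen the prolyl hydroxylases of the Egln genes mark the alpha subunit for destruction, and in low oxygen the pair binds a short core sequence and raises transcription of transporters, glycolytic enzymes and a feedback set that includes Egln3 itself. Control of the alpha subunits is largely on the protein, which an RNA array does not read. Bnip3, a HIF target, encodes a receptor that brings mitochondria to autophagosomes, and so acts within the pathway that ATG7 serves.

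The median linear intensity of an array was 110 to 115. Atg7 read 598 to 831 in the KO arrays, against 832 to 1004 in the WT arrays; which exons its probe set covers is not given in the sources used here. The arrays stood apart by number more than by genotype or treatment. Across all genes, duplicates of a group correlated at r = 0.962 to 0.978. Arrays of the same number but other genotype correlated at r = 0.989 to 0.997, and arrays of the same genotype and number at r = 0.996 to 0.997. The cells carried the markers of their label, though not these alone. Melanocyte markers were high on every array, with a summed intensity over 12 genes such as Tyr, Dct and Pmel of 59512 to 62129 in KO and 58183 to 61607 in WT of number 1, and of 92129 to 93327 in KO and 106487 to 108983 in WT of number 2. Fibroblast markers, 12 genes such as Col1a1 and Dcn, went the other way: their summed intensity was 51939 to 54999 in KO and 52233 to 53908 in WT of number 1, and 21105 to 22812 in KO against 9286 to 10691 in WT of number 2. In number 1 the fibroblast sums were thus not far below the melanocyte sums. Whether Cre deleted Atg7 in cells that carry fibroblast markers was not tested. All 12 fibroblast markers had a higher mean in number 1 than in number 2 (median log2 difference 1.59), and all 12 melanocyte markers a lower one (median -1.12). Keratinocyte, endothelial, myeloid, mast cell and skeletal muscle markers had sums of 242 to 2897 per list, and 6 Schwann cell markers, some of which melanocytes also express, had sums of 6257 to 7821. The myeloid sums of number 2 also differed between genotypes, at 2642 (UVA) and 2897 (sham) in KO against 1556 and 1614 in WT. Among these markers Lyz2 read 1554 and 1717 in KO of number 2 against 452 and 557 in WT. In bulk RNA, fewer cells of a type and less RNA per cell cannot be told apart.

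**Figure D1:**
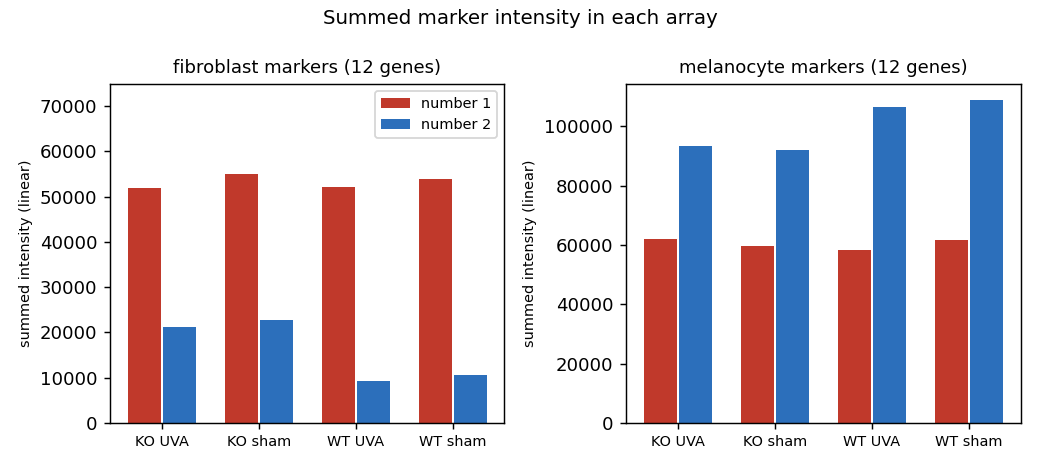
Summed linear intensity of 12 fibroblast markers (left) and 12 melanocyte markers (right) in each array, by group on the x axis and by replicate number in colour; bars are single arrays. Fibroblast markers sum to 51939 or more on each number 1 array and differ between genotypes within number 2, at 21105 to 22812 in KO and 9286 to 10691 in WT.

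The level of the glycolysis and hypoxia genes followed the replicate number. For 27 of the 33 genes the 4 arrays of number 1 did not overlap the 4 arrays of number 2, while 32.1% of all genes separated in this way in either direction. Number 1 was higher for 11 of them (15.5% of all genes) and lower for 16 (16.6% of all genes). The replicate number accounted for a median of 75.5% of the variance of a member over the 8 arrays, genotype for 4.5% and UVA for 1.7%; over all genes the medians were 32.6%, 6.2% and 4.7%. These are descriptions without a test, because the numbers are not a condition of the study. All but 4 members had a mean level above the median of all genes, while the all-gene values include the dim genes. Of those 4 dim members, Pdk1, Car9 and Car12 overlapped between the numbers and Slc2a3 did not. Shares among genes of like level were not computed. The marker sums above moved with the numbers as well, and the part of cell composition in the differences was not tested.

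The direction of that difference was not the same for the steps of the pathway. The glucose importer Slc2a1, the lactate and pyruvate carriers Slc16a1 and Slc16a3, the inducible hexokinase Hk2, the phosphofructokinase activator Pfkfb4, and the hypoxia genes Hif1a, Egln3, Bnip3, Ndrg1, P4ha1 and P4ha2 were higher in number 1. The 7 measured genes from aldolase to pyruvate kinase (Aldoc, Tpi1, Gapdh, Pgk1, Pgam1, Eno2 and Pkm) all had a lower mean in number 1, by 0.13 to 0.91 log2 units, and Pgk1 alone of them overlapped between the numbers. The phosphofructokinase genes Pfkl, Pfkm and Pfkp, the lactate dehydrogenase genes Ldha and Ldhb, the pyruvate dehydrogenase kinase gene Pdk3, the constitutive hexokinase Hk1, the high-affinity glucose transporter Slc2a3, the oxygen-sensing hydroxylase Egln1 and Epas1 were also lower in number 1. Pfkfb3, Pgk1, Pdk1, Car9, Car12 and Kdm3a overlapped between the numbers. The 6 largest differences, number 1 minus number 2, were those of Egln3 (2.87 log2 units, or 7.32-fold), P4ha2 (1.06), Slc2a1 (1.02), Eno2 (-0.91), Epas1 (-0.83) and Pfkfb4 (0.80). The HIF alpha genes differed in opposite directions. Hif1a was 1.45-fold higher in number 1 and Epas1 was at 0.563 of its level in number 2.

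The promoters of Egln3, Slc2a1 and P4ha2, the 3 members that differed by 1 log2 unit or more between the numbers (all 3 higher in number 1, as were 3.0% of all genes, while no member and 2.07% of all genes were lower by as much), are shown here from RefSeq (GRCm38.p6), from 250 bases before to 50 bases after the annotated start. Capitals mark each match, on either strand, to the HIF core sequence, searched as ACGTG or GCGTG; on the other strand these read CACGT and CACGC, and matches may overlap.
Egln3 promoter, chr12:54203825-54204124, minus strand: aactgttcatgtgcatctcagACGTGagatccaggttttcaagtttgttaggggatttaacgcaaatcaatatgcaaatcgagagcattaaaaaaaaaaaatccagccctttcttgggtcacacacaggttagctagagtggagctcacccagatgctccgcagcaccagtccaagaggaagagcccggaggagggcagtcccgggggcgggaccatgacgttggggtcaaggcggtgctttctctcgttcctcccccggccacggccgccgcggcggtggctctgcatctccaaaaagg
Slc2a1 promoter, chr4:119108495-119108794, plus strand: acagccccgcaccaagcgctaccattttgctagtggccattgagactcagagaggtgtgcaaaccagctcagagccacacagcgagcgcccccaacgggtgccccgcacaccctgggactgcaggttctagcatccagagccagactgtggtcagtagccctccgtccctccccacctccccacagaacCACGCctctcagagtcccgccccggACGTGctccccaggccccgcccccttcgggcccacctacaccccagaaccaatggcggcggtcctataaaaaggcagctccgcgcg
P4ha2 promoter, chr11:54100674-54100973, plus strand: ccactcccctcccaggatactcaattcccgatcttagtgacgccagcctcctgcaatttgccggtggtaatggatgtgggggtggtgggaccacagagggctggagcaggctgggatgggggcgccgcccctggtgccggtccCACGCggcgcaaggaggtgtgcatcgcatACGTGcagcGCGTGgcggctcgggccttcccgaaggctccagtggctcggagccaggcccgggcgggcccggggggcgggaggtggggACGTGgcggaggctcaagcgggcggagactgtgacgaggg
The Egln3 window held 1 match, the Slc2a1 window 2 and the P4ha2 window 4. RefSeq promoters were matched by symbol for 30 of the 33 members, with 41 promoters in all; 32 of these (78.0%) held at least 1 match, against 43.8% of all 32851 promoters of the same length, and 23 (56.1%) held ACGTG itself, against 19.6%. The Eno2, Tpi1 and Car12 windows held none. Members lower in number 1 also held the letters, with 7 matches in 1 window of Ldha. A match is a run of letters and does not show that HIF binds there. The members were listed as glycolysis and hypoxia-responsive genes, so HIF targets were chosen with them. The shares count promoters, not genes, against all promoters, with no match for expression level or base content. Enrichment of the letters was not tested.

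**Figure D2:**
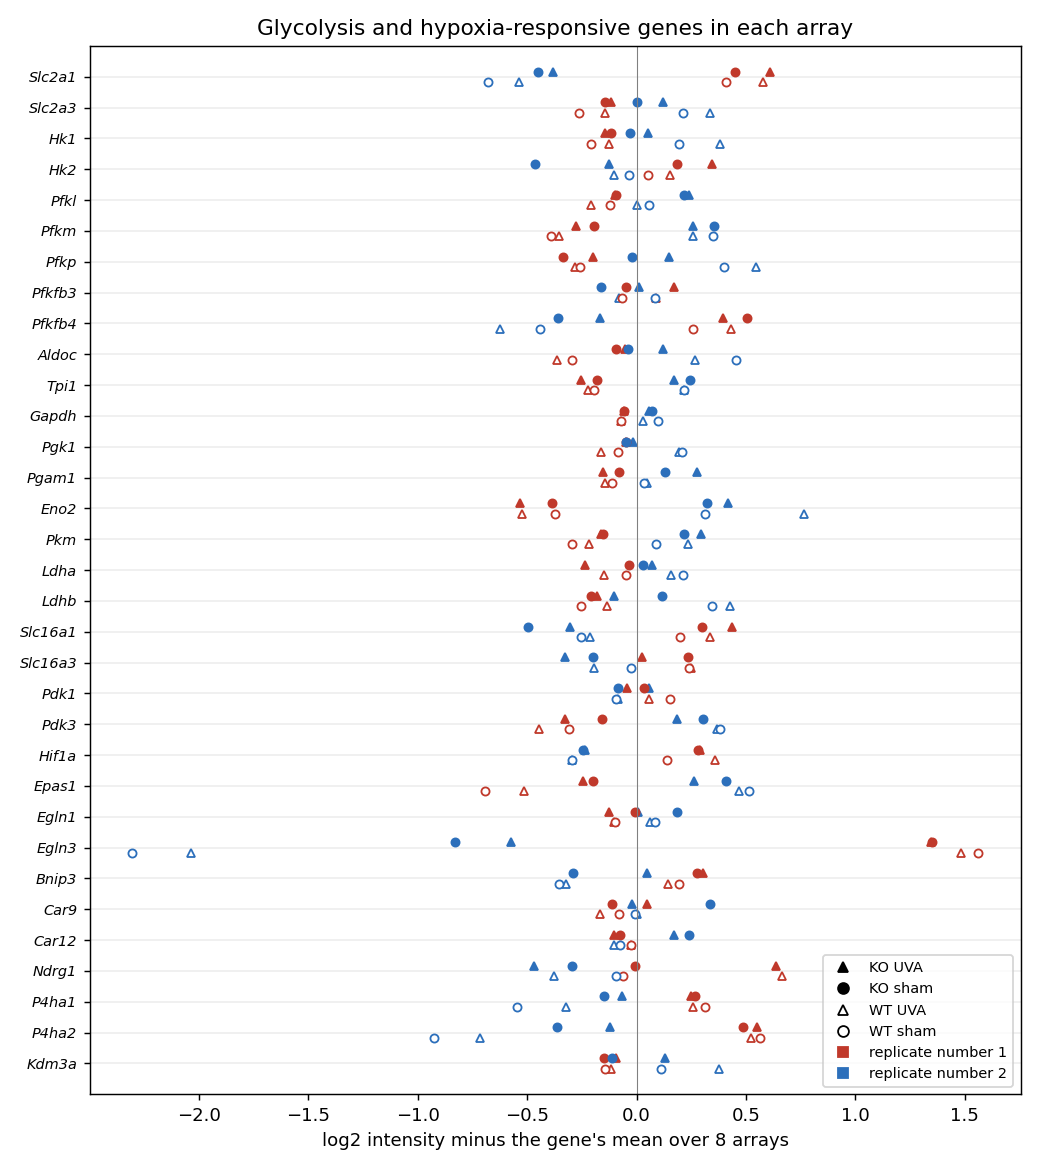
Log2 intensity of each of the 33 genes (rows, in pathway order) in each array, minus that gene's mean over the 8 arrays; colour gives the replicate number, filled symbols are KO and open symbols WT, triangles UVA and circles sham. For 27 genes the colours do not overlap, with Egln3 the widest (2.87 log2 units between the numbers), while for no gene do the 4 KO symbols lie clear of the 4 WT symbols.

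The comparison of KO with WT asks whether loss of Atg7 changed these genes. Averaged over UVA and sham, 17 of the 33 genes had a positive and 16 a negative KO minus WT log2 difference, with a median of 0.002, against -0.01 over all genes; the median size of the difference was 0.09, against 0.07 over all genes. None passed limma's test over all genes, without a block (0.0% of all genes called) or with the replicate number added as a block, here the replicate block (0.0316% of all genes called, and smallest adjusted p among the members 0.563, for Pkm). At an unadjusted p under 0.05 the members held 0 genes without a block (2.33% of all genes) and 1, Pkm, with the replicate block (8.88% of all genes). For no member did the 4 KO arrays lie clear of the 4 WT arrays, which held for 0.866% of all genes with KO higher and 0.942% with KO lower. SEs below are from the fit blocked on the replicate number, and none of the members named in this comparison passed. That fit counts UVA and sham arrays of the same genotype and number as independent. Yet KO minus WT can move with the number alike in both treatments. For Egln3 it was -0.136 in number 1 and 1.465 in number 2 after UVA, and -0.211 and 1.477 after sham. The SEs and intervals of KO minus WT may therefore be too narrow, and the p-values too small. For the same reason the 4 KO and WT pairs matched by treatment and number are not 4 independent pairs.

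The prolyl hydroxylase gene Egln3 had the widest genotype difference of the 33 genes, and the numbers differed in its direction. Its intensity was 1045 and 276 in KO UVA, 1047 and 231 in KO sham, 1148 and 100 in WT UVA and 1212 and 83 in WT sham (numbers 1 and 2). In number 2 both KO arrays read more than either WT array, 2.77-fold on average, while in number 1 both KO arrays read less, at 0.887 of WT. The mean difference was 0.65 log2 units (SE 0.32, adjusted p = 0.601), with a 95% interval of -0.12 to 1.42. P4ha2, a catalytic subunit of the enzyme that hydroxylates prolines in collagen, also had its genotype gap in number 2. It read 921 and 579 in KO UVA, 882 and 489 in KO sham, 905 and 383 in WT UVA and 929 and 331 in WT sham. Its KO over WT ratio was 0.983 in number 1 and 1.49 in number 2 (mean 0.28, SE 0.14, adjusted p = 0.594). P4ha1, the paralogous subunit, had ratios of 0.981 and 1.25. The fibroblast marker sums differed between genotypes in number 2 in the same direction as these 3 genes; their part in the differences was not tested.

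Bnip3, the mitophagy receptor gene, had higher values in KO than in WT within each number. It read 355 and 297 in KO UVA, 348 and 235 in KO sham, 318 and 230 in WT UVA and 329 and 225 in WT sham. All 4 matched KO and WT pairs had KO higher, and the mean difference was 0.17 log2 units (SE 0.08, adjusted p = 0.587), or 1.12-fold. The KO over WT ratio of Bnip3 was 1.09 in number 1 and 1.16 in number 2. In number 2 the fibroblast marker sums were also higher in KO, and their part in the Bnip3 difference was not tested. Bnip3 was one of 5 members with KO higher in all 4 matched pairs (15.2% of the members, against 7.65% of all genes), with Slc2a1 (0.11), Pfkl (0.13), Pfkm (0.07) and Pkm (0.09). In number 2, Pfkm read 501 in KO against 500 in WT after UVA, and 534 against 533 after sham. Such gaps are near the rounding of the intensities to whole numbers. Slc16a3, the lactate exporter MCT4, was the only member with KO lower in all 4 pairs (-0.13; 3.03% of the members, against 7.78% of all genes). It read 234 and 183 in KO UVA, 271 and 200 in KO sham, 273 and 201 in WT UVA and 272 and 226 in WT sham.

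Among the enzymes that commit glucose to the pathway, the platelet-type phosphofructokinase Pfkp and the activator Pfkfb4 had the widest differences. Pfkp read 1132 and 1443 in KO UVA, 1031 and 1283 in KO sham, 1071 and 1902 in WT UVA and 1088 and 1720 in WT sham. Its difference of -0.20 log2 units (SE 0.10, adjusted p = 0.587) lay in number 2, where KO was at 0.752 of WT, while in number 1 the ratio was 1.00. The 12 melanocyte markers also had a lower KO than WT level in number 2 (median KO minus WT log2 difference -0.34, against 0.01 in number 1), and the fibroblast markers a higher one (1.12, against -0.05 in number 1). Their part in the Pfkp difference was not tested. Pfkfb4 read 349 and 236 in KO UVA, 376 and 207 in KO sham, 357 and 172 in WT UVA and 317 and 195 in WT sham, a mean difference of 0.19 (SE 0.09, adjusted p = 0.603). KO was lower than WT for Pfkfb4 in the UVA arrays of number 1 and higher in the other 3 pairs. Hexokinases Hk1 (-0.12) and Hk2 (-0.03) each had a KO mean above WT in number 1 and below it in number 2. The glucose importer Slc2a1 read 7881 and 3952 in KO UVA, 7036 and 3777 in KO sham, 7698 and 3552 in WT UVA and 6835 and 3220 in WT sham. Its genotype difference of 0.11 log2 units (SE 0.05, adjusted p = 0.574) compares with 1.02 between the numbers. The KO over WT ratio of Slc2a1 was 1.03 in number 1 and 1.14 in number 2, and the part of the fibroblast markers in it was not tested.

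Of the enzymes from aldolase to pyruvate kinase, Gapdh and Tpi1 had the values closest to 0. Gapdh, which oxidises glyceraldehyde phosphate, read 10800 and 11713 in KO UVA, 10804 and 11826 in KO sham, 10729 and 11501 in WT UVA and 10709 and 12045 in WT sham. Its KO minus WT difference was 0.01 log2 units (SE 0.03), with a 95% interval of -0.07 to 0.09, and that of Tpi1 was -0.01 (interval -0.11 to 0.10). Pkm, the pyruvate kinase gene, had the smallest p-value of the set. It read 5886 and 8086 in KO UVA, 5923 and 7656 in KO sham, 5669 and 7764 in WT UVA and 5379 and 7009 in WT sham. KO exceeded WT by 0.09 log2 units in Pkm (SE 0.04, adjusted p = 0.563), with close values in both numbers. The other 4 genes of this stretch had differences of -0.03 (Aldoc), -0.08 (Pgk1), 0.09 (Pgam1) and -0.09 (Eno2), and a second, dimmer Pgam1 probe set had the opposite sign (-0.14). Several of these enzymes have processed pseudogenes in the mouse genome, and how far their probe sets also read such copies was not tested.

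Among the genes that set the fate of pyruvate, the lactate dehydrogenase subunit gene Ldhb had the widest difference. It read 717 and 756 in KO UVA, 705 and 881 in KO sham, 741 and 1092 in WT UVA and 681 and 1031 in WT sham. The KO over WT ratio was 1.00 in number 1 and 0.769 in number 2, for a mean of -0.19 log2 units (SE 0.10, adjusted p = 0.613). As with Pfkp, the melanocyte marker median was -0.34 and the fibroblast marker median 1.12 in number 2, and their part in the Ldhb difference was not tested. Ldha, the other subunit gene, read 538 and 665 in KO UVA, 617 and 646 in KO sham, 570 and 705 in WT UVA and 611 and 733 in WT sham, a difference of -0.08 (SE 0.07). Pdk1, whose product is a kinase that restrains the entry of pyruvate into the mitochondrial cycle, was dim, at 110 and 118 in KO UVA, 116 and 107 in KO sham, 118 and 107 in WT UVA and 126 and 106 in WT sham. Its KO values lay within the range of its WT values (-0.02, SE 0.08). Pdk3 differed by 0.00 and Slc16a1 by -0.03.

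Of the other oxygen-sensing genes, Hif1a and Egln1 had differences under 0.05 log2 units and Epas1 one that changed sign between the numbers. Hif1a read 2650 and 1843 in KO UVA, 2638 and 1829 in KO sham, 2787 and 1772 in WT UVA and 2389 and 1770 in WT sham, or 0.04 log2 units between KO and WT (SE 0.06, interval -0.09 to 0.18). Epas1 read 491 and 700 in KO UVA, 507 and 774 in KO sham, 408 and 806 in WT UVA and 360 and 832 in WT sham. KO was above WT by 0.38 in number 1 and below it by 0.15 in number 2, so the mean of 0.11 (SE 0.12) joins opposite values. Egln1, the main oxygen-sensing hydroxylase, read 906 and 992 in KO UVA, 982 and 1122 in KO sham, 919 and 1030 in WT UVA and 922 and 1047 in WT sham (0.03, SE 0.06). The carbonic anhydrases Car9 (0.13) and Car12 (0.12), which were dim, the stress gene Ndrg1 (-0.07) and the histone demethylase Kdm3a (-0.11) completed the hypoxia targets.

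**Figure D3:**
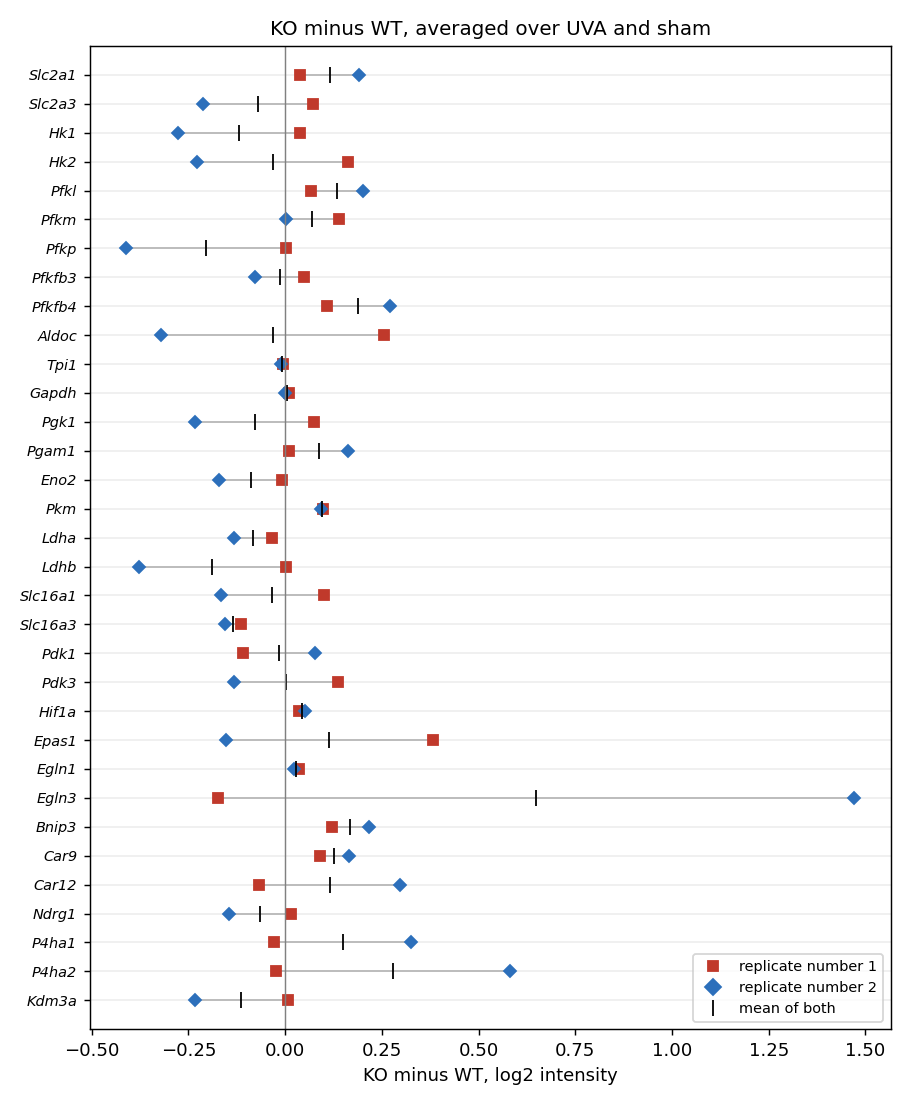
KO minus WT log2 intensity, averaged over UVA and sham, for each of the 33 genes in number 1 (squares) and number 2 (diamonds), with the mean of both as a tick. Values of Egln3 lie at -0.17 and 1.47 in the 2 numbers, while those of Gapdh, Tpi1, Pkm, Hif1a and Egln1 nearly coincide.

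Split by treatment, the genotype comparison gave no call either. After UVA, 19 members had a positive and 14 a negative KO minus WT difference (median 0.02, against -0.02 over all genes), and after sham 17 and 16 (median 0.02, against -0.001 over all genes). No member passed after UVA or after sham, where 0.0% of all genes were called in the fits without and with the replicate block. At an unadjusted p under 0.05, after UVA there were 0 members in both fits (1.59% of all genes without and 4.18% with the block). After sham there were 0 members without the block (2.01% of all genes) and 1, Pkm, with it (5.55%). Egln3 had the widest difference in each, 0.67 (SE 0.46, adjusted p = 0.957) after UVA and 0.63 (SE 0.46, adjusted p = 0.864) after sham.

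The comparison of UVA with sham asks whether the genes responded within 6 h of irradiation. Averaged over genotypes, 19 members had a positive and 14 a negative UVA minus sham difference, with a median of 0.02 log2 units, against 0.00 over all genes, and a median size of 0.07 in both. No member passed without a block (0.0% of all genes called), with the replicate block (0.0135%) or when genotype and number were blocked jointly (0.437%, or 97 genes). This last fit compares UVA and sham within each genotype and number, and the SEs below are from it. It counts the KO pair and the WT pair of a number as independent. For members such as Ndrg1 and Kdm3a, though, the UVA effects of KO and WT moved together by number. The SEs and intervals of the averaged UVA effect may therefore be too narrow, and the p-values too small. Likewise the 4 UVA and sham pairs matched by genotype and number are not 4 independent pairs. At an unadjusted p under 0.05 there were 0 members without a block (1.81% of all genes), 1, Slc2a1, with the replicate block (6.54%) and 3, Slc2a1, Slc16a1 and Kdm3a, with the joint block (12.6%). For no member were the 4 UVA arrays clear of the 4 sham arrays, as they were for 1.23% of all genes with UVA higher and 0.6% with UVA lower.

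Transporters for glucose and lactate were among the genes with the same UVA direction in every pair. Slc2a1, which carries glucose into the cell, was higher after UVA in all 4 matched pairs, at 7881 after UVA against 7036 after sham in number 1 and 3952 against 3777 in number 2 of KO, and at 7698 after UVA against 6835 after sham in number 1 and 3552 against 3220 in number 2 of WT. The mean difference was 0.14 log2 units, or 1.10-fold (SE 0.03, adjusted p = 0.154), with a 95% interval of 0.06 to 0.21. A second, dimmer Slc2a1 probe set (97 to 153) had the opposite sign, with a UVA minus sham difference of -0.013. Its KO minus WT difference was -0.056, also opposite to that of the probe set used. Slc16a1, the lactate and pyruvate carrier MCT1, read 1773 and 1063 in KO UVA, 1612 and 929 in KO sham, 1652 and 1132 in WT UVA and 1503 and 1099 in WT sham. It too was higher after UVA in every pair (0.13, SE 0.05, adjusted p = 0.301). Slc16a3, the lactate exporter described above, had the opposite sign (-0.13, SE 0.07, adjusted p = 0.543), with UVA lower in 3 pairs and 273 after UVA against 272 after sham in WT of number 1. In all, UVA was higher in all 4 pairs for 5 members (15.2% of the members, against 10.6% of all genes), namely these transporters Slc2a1 and Slc16a1 with Slc2a3, Hif1a and Kdm3a. For Hif1a the WT pair of number 2 read 1772 after UVA and 1770 after sham, a gap near the rounding to whole numbers. UVA was lower in all 4 pairs for Pdk3 (-0.11) and Egln1 (-0.08), or 6.06% of the members, against 9.08% of all genes. The summed fibroblast markers were also lower after UVA in all 4 pairs, at 51939 after UVA against 54999 after sham and 21105 against 22812 in KO, and at 52233 after UVA against 53908 after sham and 9286 against 10691 in WT. Their part in these values was not tested.

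Kdm3a, a histone demethylase gene and HIF target, read 818 and 957 in KO UVA, 787 and 808 in KO sham, 806 and 1133 in WT UVA and 791 and 943 in WT sham. It was 0.15 log2 units higher after UVA (SE 0.06, adjusted p = 0.37), by 0.04 in number 1 and 0.25 in number 2. Hk2, the hexokinase that binds mitochondria and responds to growth signals, read 705 and 508 in KO UVA, 630 and 402 in KO sham, 616 and 516 in WT UVA and 575 and 542 in WT sham. Its mean difference was 0.13 (SE 0.06, adjusted p = 0.449), and the pair of WT arrays in number 2 ran the other way. The enzymes from aldolase to pyruvate kinase lay between -0.04 (Tpi1) and 0.07 (Pkm), and the Gapdh interval was -0.08 to 0.04.

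**Figure D4:**
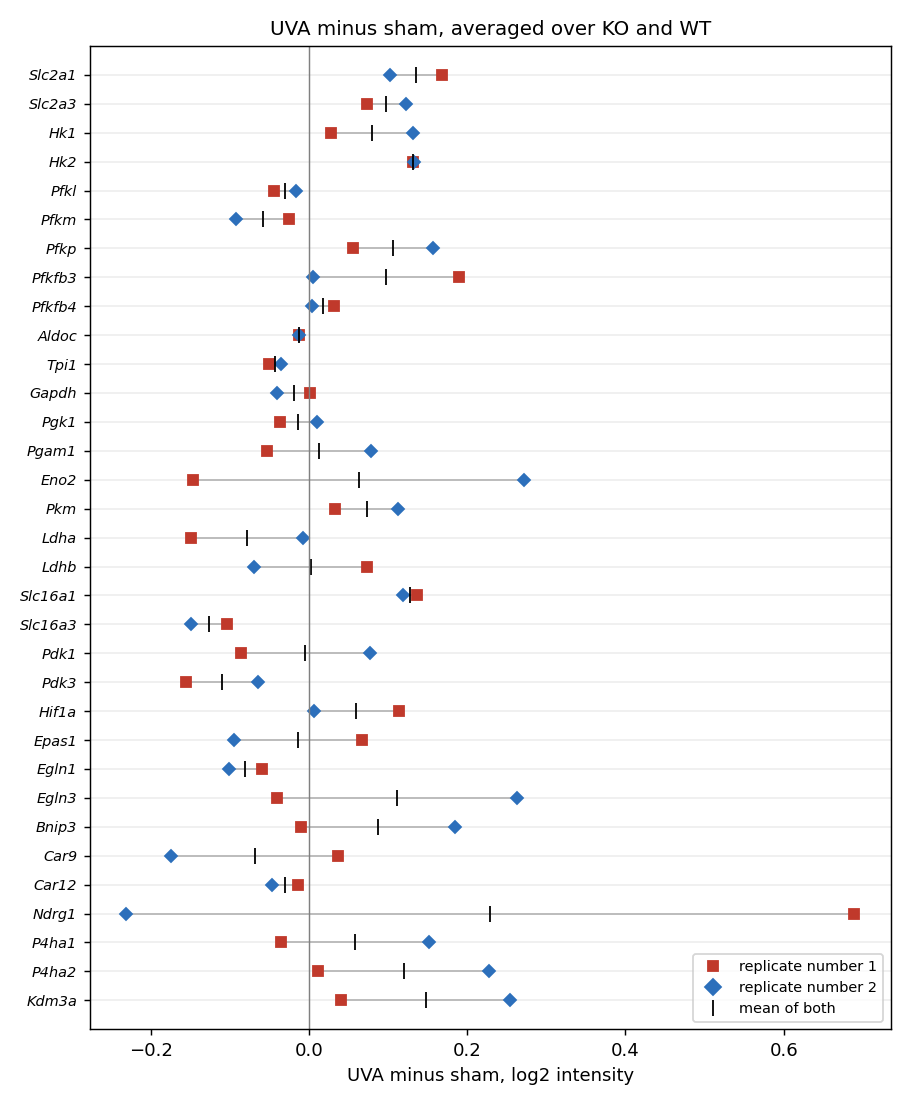
UVA minus sham log2 intensity, averaged over KO and WT, for each of the 33 genes in number 1 (squares) and number 2 (diamonds), with the mean of both as a tick. Ndrg1 stands at 0.69 in number 1 and -0.23 in number 2, and Slc2a1, Hk2 and Slc16a1 are positive in both.

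Ndrg1 had the widest UVA value of the set, with opposite directions in the replicate numbers. The gene, at chr15:66929318-66969641 (GRCm38.p6), encodes a cytoplasmic protein induced by low oxygen, metal ions and differentiation. Its intensity was 4700 and 2180 in KO UVA, 2999 and 2463 in KO sham, 4786 and 2321 in WT UVA and 2886 and 2828 in WT sham. In number 1 the UVA arrays were at 1.57 times sham in KO and 1.66 times in WT, while in number 2 they were at 0.885 in KO and 0.821 in WT. The mean over the numbers was 0.23 log2 units (SE 0.17, adjusted p = 0.65). A test of the UVA effect in number 1 minus that in number 2, which was chosen after the values were seen, gave 0.92 log2 units (SE 0.07, adjusted p = 0.0132 in limma). The SE of this test rests on how closely KO and WT match within a number. No number was itself repeated, so the p-value does not measure how far UVA effects vary from number to number. Ndrg1 was 1 of 2 genes that passed (0.00902% of all genes), the other being Plet1. With any 1 of the 8 arrays left out the value was 0.865 to 0.974 and was not called. Such a fit has fewer residual degrees of freedom, so its lost call cannot measure how stable the difference is. The call was also lost when the variance was moderated without a trend on level (adjusted p = 0.75), with the value at 0.92. A second, dimmer Ndrg1 probe set read 312 and 193 in KO UVA, 256 and 161 in KO sham, 332 and 155 in WT UVA and 217 and 189 in WT sham, with UVA higher in number 1 in both genotypes and in KO but not WT of number 2. With the mean of both probe sets the difference was 0.69 (adjusted p = 0.377).

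**Figure D5:**
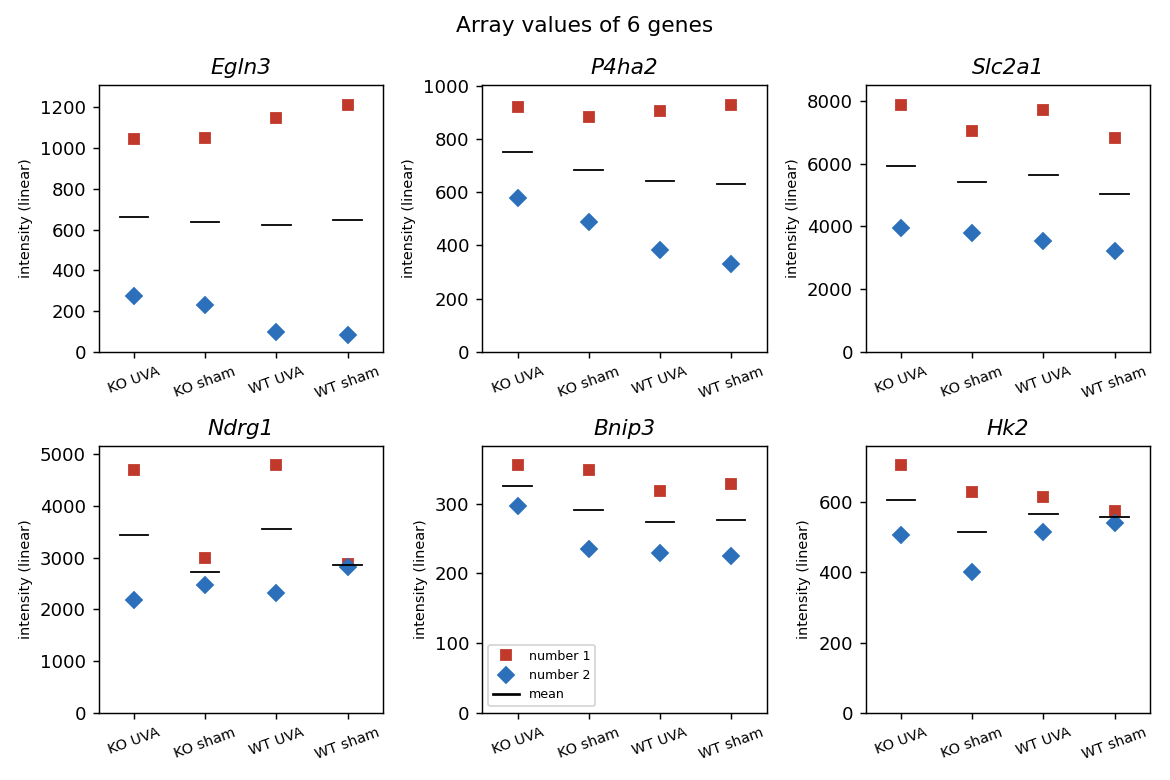
Linear intensity of Egln3, P4ha2, Slc2a1, Ndrg1, Bnip3 and Hk2 in each array, by group on the x axis, with number 1 as squares, number 2 as diamonds and the mean of both as a line. For Ndrg1 the number 1 arrays after UVA (4700 in KO, 4786 in WT) stand above the other 6, and for Egln3 the WT arrays of number 2 (100 after UVA, 83 after sham) are the lowest.

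Within a genotype, the UVA values were positive for 21 members and negative for 12 in KO (median 0.03, against -0.002 over all genes), and for 16 and 17 in WT (median -0.004, against 0.01 over all genes). No member passed in KO (0.0% of all genes called without a block, 0.00902% with either block) or in WT (0.0% without a block, 0.00451% with the replicate block and 0.0541% with the joint block). At an unadjusted p under 0.05, KO had 0 members without a block (1.57% of all genes), 0 with the replicate block (4.02%) and 3, Slc2a1, Hk2 and Slc16a1, with the joint block (8.49%). WT had 0 members without a block (1.54%), 0 with the replicate block (3.94%) and 2, Slc2a1 and Pkm, with the joint block (8.41%). The widest value in KO was that of Hk2, 0.25 (SE 0.09, adjusted p = 0.514), with 0.16 in number 1 and 0.34 in number 2. The same gene had 0.01 in WT.

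The interaction, the UVA effect in KO minus that in WT, asks whether Atg7 loss altered the response to UVA. It was positive for 17 members and negative for 16, with a median of 0.00, and no gene on the array was called in any of the 3 fits (0.0%). At an unadjusted p under 0.05 there were 0 members without a block (1.33% of all genes), with the replicate block (2.06%) and with the joint block (3.45%). Hk2 had the widest value, 0.24 (SE 0.13, adjusted p = 1), with a 95% interval of -0.05 to 0.52. Aldoc, the brain-type aldolase gene, followed at 0.23 (SE 0.13), and read 400 and 451 in KO UVA, 388 and 403 in KO sham, 322 and 499 in WT UVA and 338 and 568 in WT sham. Pfkfb3, whose product makes the activator of phosphofructokinase, read 217 and 194 in KO UVA, 186 and 172 in KO sham, 205 and 182 in WT UVA and 184 and 204 in WT sham (0.20, SE 0.16). The next were Ldhb (-0.20), Bnip3 (0.19) and Eno2 (-0.17), the neuronal enolase gene. Eno2 read 571 and 1101 in KO UVA, 631 and 1031 in KO sham, 574 and 1401 in WT UVA and 636 and 1026 in WT sham, so its highest value was a single array, WT UVA of number 2. The intervals of these 6 values all include 0.

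Other genes of both pathways were read from a list of 87 genes, of which 81 were measured, 39 of glycolysis and pyruvate metabolism and 42 of the hypoxia response. None passed in any comparison or fit. In the genotype comparison the glycolysis genes had 20 positive and 19 negative values (median 0.01) and the hypoxia genes 25 and 17 (median 0.02). The widest values were those of 3 secreted factors, Adm (0.94, SE 0.31, adjusted p = 0.517), Angptl4 (0.81, SE 0.31, adjusted p = 0.548) and the collagen cross-linking enzyme Lox (0.67, SE 0.26, adjusted p = 0.548). Adm, the gene for the vasodilator peptide adrenomedullin, read 2806 and 1156 in KO UVA, 2053 and 1040 in KO sham, 2587 and 313 in WT UVA and 1587 and 396 in WT sham. As with Egln3, the gap between KO and WT was wider in number 2, where the fibroblast sums also differed between genotypes, and their part in it was not tested.

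In the UVA comparison the other glycolysis genes had 20 positive and 19 negative values (median 0.00) and the other hypoxia genes 26 and 16 (median 0.04). The widest values were those of the placental growth factor gene Pgf (0.51, SE 0.11, adjusted p = 0.102), the endothelin gene Edn1 (-0.38, SE 0.08, adjusted p = 0.098) and the mTOR inhibitor gene Ddit4 (0.27, SE 0.06, adjusted p = 0.112), with the joint block. Pgf was dim, at 170 and 139 in KO UVA, 92 and 110 in KO sham, 121 and 92 in WT UVA and 82 and 78 in WT sham. Its UVA array was above its sham array in all 4 pairs.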

How the data were processed

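RNA of 8 mouse melanocyte samples was read on Affymetrix arrays. The authors deposited 1 intensity per probe set, made with RMA in Affymetrix Expression Console 1.3.1.187 per the submitters' processing notes. The deposited intensities are linear and rounded to whole numbers (7 to 22585), which limits dim genes, and log2 was taken with no pseudocount. The genome build is not stated in the sources used here. Of 41345 probe sets, 23521 carried 1 gene symbol. The brightest per gene gave 22180 genes.

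Group means of the 8 arrays were fitted with limma 3.58.1 (R 4.3.3, eBayes with trend). The 7 comparisons were each adjusted by Benjamini-Hochberg over all 22180 genes, two-sided, with a threshold of 0.05. The arrays' number limits the precision: the fit had 4 residual degrees of freedom, 3 with the replicate number as block, and 2 with genotype by number (the joint block). The numbers pair the arrays: for all 6 pairs of groups, the arrays' departures from their group means had correlations of 0.80 to 0.92 over all genes. The labels call the arrays biological duplicates and do not say what a shared number marks.

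Members and lists were chosen with earlier results of these data known. The averaged KO against WT fit was run on simulated data with 200 genes changed by 1 log2 unit. Without a block it recovered 21 of the 200, with 0 false calls. With the replicate block it recovered 200, with 10 false calls. The absence of calls without a block is therefore weak evidence of no change. The simulation gave all genes the same noise level, and each gene the same number difference in KO and in WT. In the measured data the genotype difference could change with the number, as for Egln3 (-0.17 in number 1 and 1.47 in number 2). These counts may therefore not hold for the measured data. The 200 recovered do not show that the fit with the replicate block would find such changes there. Values in every array are given for the 6 members with the largest difference in each averaged comparison and in the interaction, for 8 members set by role and for members that passed. Alternatives covered the block, the dim filter, the variance trend, probe set choice, normalization, scaling and each array left out. Promoters came from RefSeq (GRCm38.p6).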

Additional observations from a re-analysis of the deposited data

Results flagged for a closer look

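The UVA effect on Ndrg1 differed between the replicate numbers by 0.92 log2 units (SE 0.07, limma adjusted p = 0.0132), in a test of the difference that was added after the data were seen. That SE rests on how closely KO and WT match within a number. No number was itself repeated, so the p-value does not measure how far UVA effects vary from number to number. On the probe set used, both genotypes had UVA above sham in number 1 and below it in number 2, while on a second, dimmer probe set KO of number 2 read 193 after UVA and 161 after sham. The call was lost without a variance trend (adjusted p = 0.75) and with the mean of probe sets (adjusted p = 0.377). With any 1 array left out the difference was 0.865 to 0.974 and was not called. Those fits have fewer residual degrees of freedom, so their lost call cannot measure how stable the difference is.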

How the results depend on the processing

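No member passed in any of the 7 comparisons under any alternative that was run. Over all genes, the fit without a block called 0 in each comparison. With the replicate block there were 7 (KO against WT averaged), 3 (UVA against sham averaged), 2 (UVA in KO) and 1 (UVA in WT). With the joint block of genotype and number there were 97, 2 and 12 in the UVA comparisons (averaged, in KO, in WT) and 0 in the interaction. Leaving out each array in turn gave 0 calls without a block and, with the replicate block, 0 to 2 for UVA averaged and 0 for the other comparisons. The block changed no call of a member. Of the 66 averaged differences of single members, 4 changed sign with the mean of probe sets, 4 with repeated quantile normalization and 1 with centred arrays, and 23 had another sign in number 1 alone and 8 in number 2 alone. With 1 array left out, 10 to 28 of the 66 changed sign without a block and 5 to 14 with the replicate block. The count of members without overlap between the numbers was 11 higher and 16 lower as deposited and after quantile normalization, 11 and 13 after centring, and 11 and 15 with the mean of probe sets, and no member changed sign. The Ndrg1 difference between the numbers was 0.865 to 0.974 with 1 array left out, with no call, and 0.691 with the mean of probe sets. Without a variance trend it stayed at 0.92 and was not called (adjusted p = 0.75).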
